A study of Mus musculus with 12 samples.

Results

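The long noncoding RNAs Malat1, Neat1, Miat, Meg3, Tug1, Vax2os, Six3os1, Rmst, Gas5 and Snhg11 were followed across 3 mouse models of retinal degeneration and wild-type retina. The 10 genes were chosen by name, with earlier results of these data known, and all 10 were found among the 32867 genes of the count table. Retinal RNA was sequenced in 12 samples, 3 in each of 4 groups. Pde6b rd1 mice, taken at postnatal day 13, lack the beta subunit of the rod phosphodiesterase through a retroviral insertion. Pde6b rd10 mice, taken at day 23, carry another mutation in Pde6b with a slower course. Prph rd2 mice, taken at day 29, carry a mutation in the gene for peripherin, a protein that shapes the outer segments of photoreceptors. The C3H mice carried the wild-type alleles of Pde6b and Prph2, and their labels give days 13, 23 and 29 for 1 sample each. The 3 ages are given as the peak of photoreceptor death of each model. No group received a treatment. By the study's methods, the controls, Pde6b rd1 and Prph rd2 had a C3H background and Pde6b rd10 a C57Bl6/J background, whereas the labels give C57BL6/J for Prph rd2. Genotype and age therefore change together, and so does strain for Pde6b rd10 and, by the labels, for Prph rd2.

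Long noncoding RNAs are transcripts that are not known to be translated into a protein, many of them spliced like messenger RNAs. Some of them build structures in the nucleus, as Neat1 does for paraspeckles, others lie opposite a developmental transcription factor gene, as Six3os1 and Vax2os do, and others are hosts whose introns carry small nucleolar RNAs, as Gas5 does. In the retina, Miat, Tug1, Six3os1 and Vax2os are known from the differentiation of photoreceptors and of inner retinal neurons.

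On GRCm38 with the GENCODE vM21 annotation, the genes lie as follows, each position spanning the whole gene. Malat1 (ENSMUSG00000092341) and Neat1 (ENSMUSG00000092274) are lincRNA genes of 1 exon on the minus strand at chr19:5795690-5802672 and chr19:5824708-5845478. Miat (ENSMUSG00000097767), at chr5:112213228-112229395 on the minus strand, Rmst (ENSMUSG00000112117), at chr10:92071037-92165170 on the minus strand, and Meg3 (ENSMUSG00000021268), at chr12:109541001-109571726 on the plus strand, are also typed as lincRNA. Vax2os (ENSMUSG00000085794), at chr6:83692806-83712201 on the minus strand, and Tug1 (ENSMUSG00000056579), at chr11:3639785-3649673 on the minus strand, are typed as antisense, to Vax2 and Morc2a. Six3os1 (ENSMUSG00000093460), at chr17:85600651-85618398 on the minus strand and overlapping Six3, and Gas5 (ENSMUSG00000053332), at chr1:161034422-161038539 on the plus strand and overlapping Zbtb37, are typed as processed transcripts. Snhg11 (ENSMUSG00000044349), at chr2:158375638-158386145 on the plus strand, is typed as protein coding.

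Several sequences are shown because results below turn on their genes. Miat rose in Pde6b rd1, and its transcript is known for copies of the letters ACTAAC, which resemble the splicing branch point and are bound by the splicing factor SF1. The longest Miat transcript of GENCODE vM21, Miat-205 with 9163 bases, held 11 copies, or 1.20 per 1000 bases, and 99.6% of 1327 lincRNA genes with a transcript of at least 2000 bases had fewer per 1000 bases. The 150 bases with the most copies, 4, lie at chr5:112217319-112217468 on the minus strand of GRCm38, in exon 7 of 7. The copies are in capitals.
Miat: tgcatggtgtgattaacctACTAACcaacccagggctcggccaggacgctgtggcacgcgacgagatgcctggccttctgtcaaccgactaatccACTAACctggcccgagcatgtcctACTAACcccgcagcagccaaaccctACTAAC

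Vax2os, Malat1 and Snhg11 lay lower in Pde6b rd1 and higher in Pde6b rd10 than in C3H. Their promoter windows from RefSeq on GRCm38.p6, 250 bases before the transcription start and 50 bases from it on, are printed with the transcribed bases in capitals. RefSeq gives Vax2os 2 starts on the minus strand of chromosome 6, at 83710825 and at 83712201, and the window of the second, chr6:83712152-83712451, is the one shown here, the start that GENCODE also gives. Malat1 starts at 5802672 of chromosome 19 and its window is chr19:5802623-5802922 on the minus strand. The Snhg11 window, chr2:158375463-158375762 on the plus strand, belongs to the RefSeq start at 158375713, which lies inside the gene as GENCODE draws it.
Vax2os: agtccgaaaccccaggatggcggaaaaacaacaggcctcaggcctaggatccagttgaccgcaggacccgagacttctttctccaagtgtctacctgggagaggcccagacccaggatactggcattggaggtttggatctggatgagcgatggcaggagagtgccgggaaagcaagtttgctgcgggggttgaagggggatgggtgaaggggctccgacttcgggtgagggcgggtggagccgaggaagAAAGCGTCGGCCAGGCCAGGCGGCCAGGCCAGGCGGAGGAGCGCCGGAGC
Malat1: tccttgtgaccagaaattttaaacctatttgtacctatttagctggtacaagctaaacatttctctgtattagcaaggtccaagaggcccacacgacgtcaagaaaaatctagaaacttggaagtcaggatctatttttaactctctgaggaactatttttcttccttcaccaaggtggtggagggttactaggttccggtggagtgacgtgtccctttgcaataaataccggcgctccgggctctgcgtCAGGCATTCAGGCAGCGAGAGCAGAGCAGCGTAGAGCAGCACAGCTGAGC
Snhg11: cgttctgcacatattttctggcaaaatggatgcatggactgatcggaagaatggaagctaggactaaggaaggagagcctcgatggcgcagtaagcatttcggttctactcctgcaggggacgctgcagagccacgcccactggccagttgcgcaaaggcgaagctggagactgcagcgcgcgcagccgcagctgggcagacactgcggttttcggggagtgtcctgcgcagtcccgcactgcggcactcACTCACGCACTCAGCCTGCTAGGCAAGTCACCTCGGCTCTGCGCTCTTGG
RefSeq windows matched 8 of the 10 genes, with 11 windows in all. On both strands, none of the 11 held TAATCC, the core bound by OTX2 and CRX, TGANTCA, bound by AP-1, or TTCNNNGAA, bound by STAT factors. Of all 32851 promoter windows of this length, 7.06%, 7.81% and 8.30% held them.

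Rmst is the member with most circular RNA, and its back-splice junctions are printed where its result is described.

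The libraries held between 17049495 and 24755890 reads counted on genes, so that the floor of 3 reads lay between 0.121 and 0.176 CPM, reads per 1000000 gene reads. Levels are given as CPM scaled by edgeR's TMM factors unless FPKM, which divides by gene length, is named. For the labels of Pde6b rd1 and Prph rd2, the mutated genes were looked at. Pde6b lay between 275 and 278 CPM in Pde6b rd1 against 1249 to 1280 in C3H. Prph2 lay between 1279 and 1451 in Prph rd2 against 2729 to 3047. Summed rod genes were also lower in both models, so that these values alone do not single out the mutation. No such value is given here for the Pde6b rd10 labels. Defining rod genes summed to between 26290 and 27245 CPM in C3H, and lens genes to at most 4.74 in any sample. Xist, which silences an X chromosome in female cells, had a mean of 0.441 CPM in the controls and of 3745, 758 and 1780 CPM in Pde6b rd1, Pde6b rd10 and Prph rd2, and the Y-linked Ddx3y was at 0 in all 3 Pde6b rd1 samples, which allows up to 0.176 CPM. The mix of sexes therefore differs between the groups and cannot be told apart from the genotype. The study calls the 3 samples of a group biological replicates. The C3H samples are labelled with different ages, which would make them separate animals. Across them, genes of immature neurons summed to between 503 and 532 CPM, and whether the labelled ages are right was not tested. For the other groups the labels name no animals, so that p-values measure the spread between these samples, which may be partly technical. Over the 10 genes and 4 groups, the coefficient of variation within a group lay between 1.44 and 18.1%, with a median of 4.27%, also in C3H where the labelled ages differ.

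Calls come from edgeR's quasi-likelihood test of each model against the 3 C3H samples and needed 1.5-fold or more with p below 0.05 before adjustment. Log2 fold changes are given with their standard error and the p adjusted over all genes tested. All 10 genes passed the filter on low counts in each comparison. The 3 comparisons share their controls. Counts of genes that pass an unadjusted p under 0.05 alone are given below without the share of all genes at that limit. Nothing is read from such counts for any list.

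**Figure D1:**
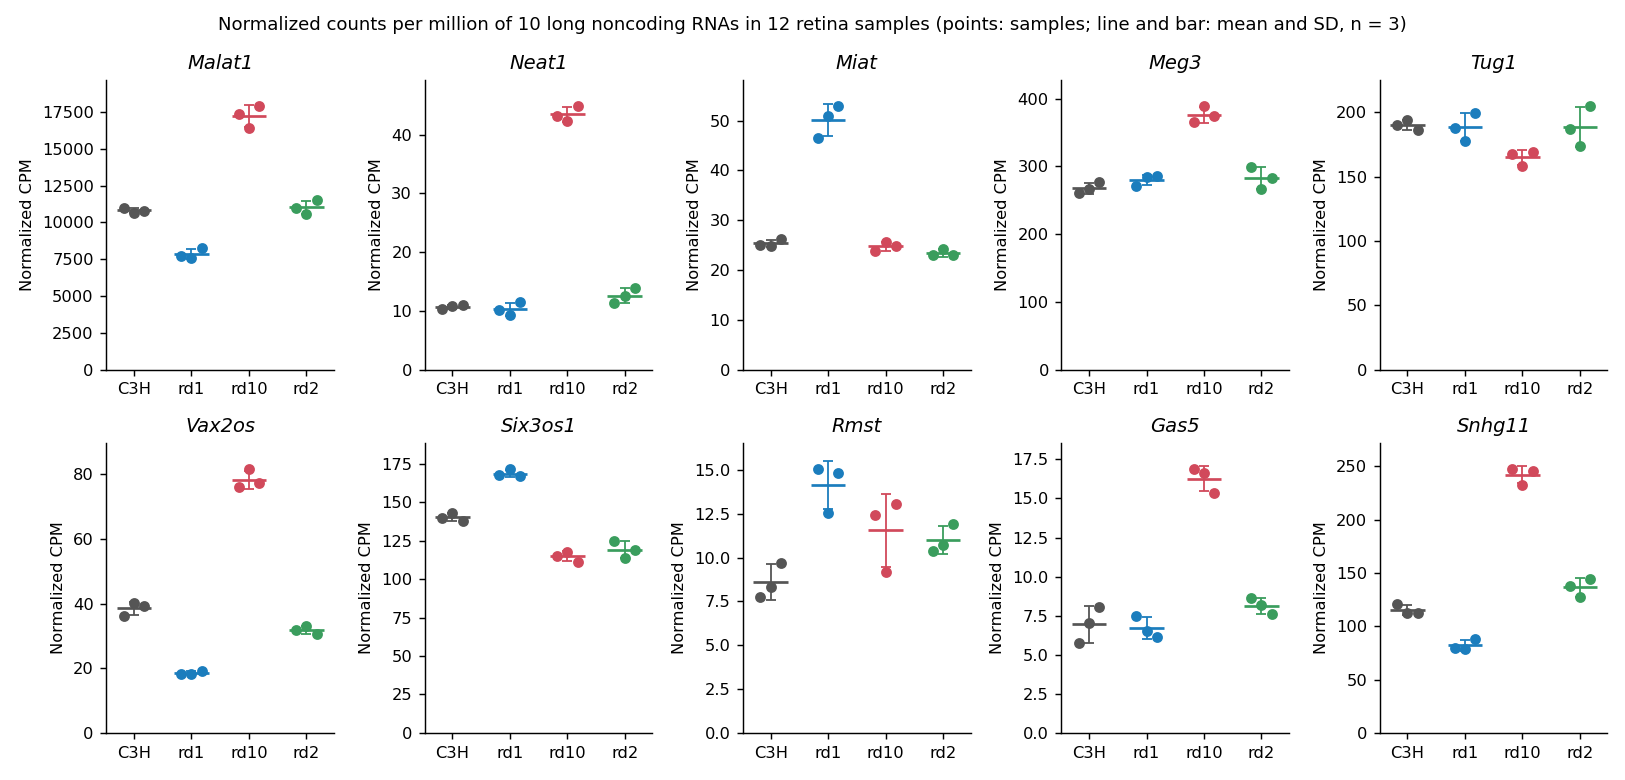
Normalized CPM of the 10 genes in each of the 12 samples (points), with the mean and SD of each group of 3 (line and bar), on linear axes that start at 0. The 3 rd10 samples stand above all other samples for Malat1, Neat1, Meg3, Vax2os, Gas5 and Snhg11, and the 3 rd1 samples do so for Miat and Six3os1.

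In Pde6b rd1 at day 13, Miat and Rmst were higher and Vax2os was lower than in C3H. Miat was 2.01-fold and Rmst 1.68-fold higher, and Vax2os was 2.05-fold lower. Malat1 and Snhg11 were lower and Six3os1 was higher by less than 1.5-fold, and the ranges of Meg3, Gas5, Neat1 and Tug1 overlapped with the controls. Thus 2 of 10 members were called higher and 1 lower, where 8.98% of all 18310 genes tested were called higher and 6.03% lower. The median log2 fold change of the 10 was -0.0028 and of all genes -0.01, and the median size of the change, without its sign, was 0.36 and 0.19.

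Miat, a nuclear transcript of neurons that is also called Gomafu or RNCR2, lay at 25.1, 24.8 and 26.2 CPM in the C3H samples and at 46.6, 50.9 and 52.9 in Pde6b rd1. The groups did not overlap. The log2 fold change was 1.01 ± 0.06 (SE, adjusted p = 1.12e-12). Its 6 exon blocks share 24.3% of their bases with Gm26953 on the other strand, and whether the authors counted by strand is not given in the sources used here. Gm26953, chosen for this overlap, had at most 25 reads in a sample against 1057 for Miat.

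Rmst, a transcript known as a partner of SOX2 in neuronal differentiation, had 7.76, 8.32 and 9.71 CPM in C3H and 15.0, 12.6 and 14.8 in Pde6b rd1. All 3 mutant samples were above all 3 controls, with a log2 fold change of 0.75 ± 0.10 (SE, adjusted p = 1.82e-06). Its lowest library had 150 reads, so that this is one of the less precise values. Its exons share 26.3% of their bases with Gm26700 on the other strand, which had at most 5 reads in a sample.

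Vax2os, which starts 937 bases from the dorsoventral factor gene Vax2 on the opposite strand, had 36.3, 40.1 and 39.3 CPM in C3H and 18.2, 18.4 and 19.1 in Pde6b rd1. Its log2 fold change was -1.03 ± 0.06 (SE, adjusted p = 2.18e-12). All 3 mutant samples lay below all controls. Vax2 itself had a log2 fold change of -0.16 ± 0.08 (SE, adjusted p = 0.0914).

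Malat1, the abundant RNA of nuclear speckles, went from 11015, 10676 and 10764 CPM in C3H to 7714, 7598 and 8237 in Pde6b rd1, a log2 fold change of -0.44 ± 0.03 (SE, adjusted p = 1.30e-12). Snhg11, a small nucleolar RNA host gene, went from 121, 113 and 112 to 79.6, 78.5 and 87.8 CPM, a log2 fold change of -0.47 ± 0.05 (SE, adjusted p = 8.89e-09). Six3os1, opposite the eye field gene Six3, went from 139.6, 143 and 138 to 168, 171 and 167 CPM, a log2 fold change of 0.29 ± 0.03 (SE, adjusted p = 2.32e-07). In all 3 genes the groups did not overlap, and the difference was smaller than the 1.5-fold of a call.

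Meg3, the maternally expressed RNA of the imprinted Dlk1-Dio3 region, had 261, 266 and 277 CPM in C3H and 271, 284 and 285 in Pde6b rd1, with overlapping groups and a log2 fold change of 0.09 ± 0.03 (SE, adjusted p = 0.0316). Gas5, Neat1 and Tug1 had log2 fold changes of -0.02 ± 0.13, -0.03 ± 0.10 and 0.01 ± 0.04 (SE), with adjusted p between 0.827 and 0.928. The 95% interval of Gas5 ran from -0.28 to 0.25, that of Neat1 from -0.23 to 0.17 and that of Tug1 from -0.07 to 0.09.

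Marker genes moved with these values. Rod genes were lower for 5 of 8 (summed 12917 to 12938 CPM against 26290 to 27245), cone genes for 4 of 7, genes of Müller glia for 4 of 7 (1513 to 1551 CPM against 2972 to 3076) and genes of the pigment epithelium for 5 of 5. Genes of immature neurons were higher for 3 of 5, Sox11, Dcx and Sox4, and summed to between 708 and 719 CPM against 503 to 532 in C3H. The part of these cell types, and of the younger age, in the change of Miat, Rmst and Vax2os was not tested. The mix of sexes also differs from C3H and cannot be told apart from the genotype. In RNA of a whole tissue, fewer cells of a type and less RNA per cell cannot be told apart.

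**Figure D2:**
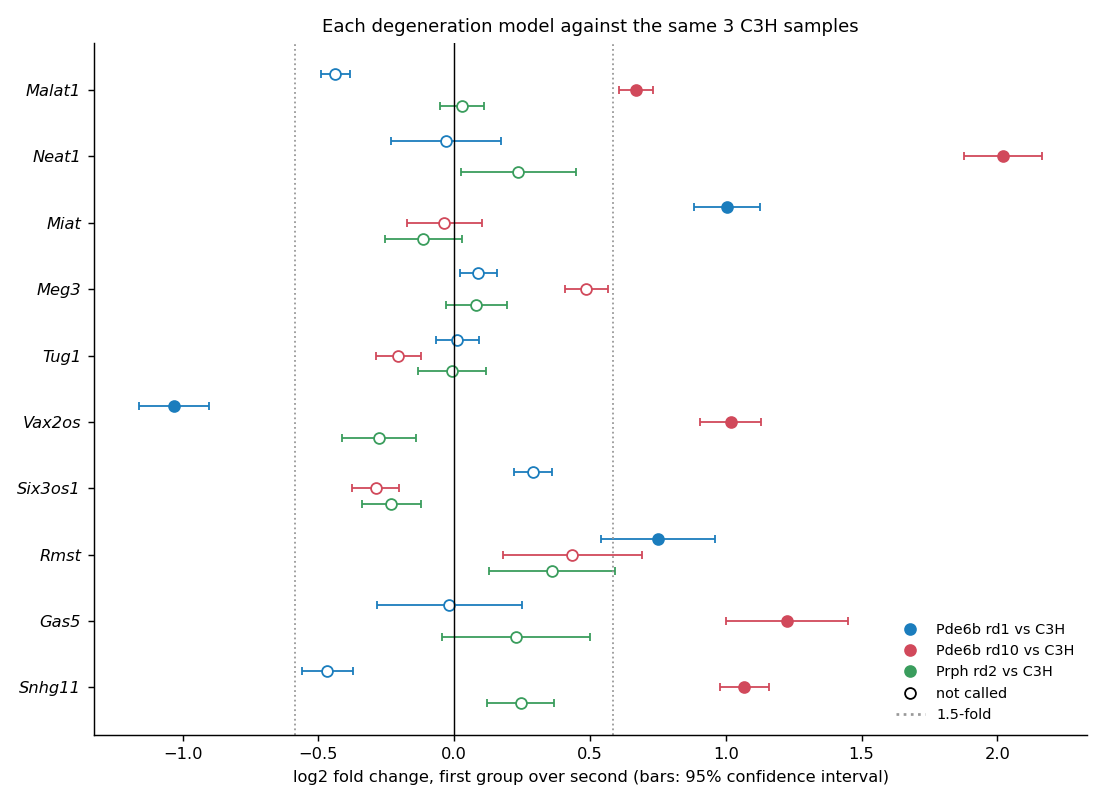
Log2 fold change of each gene in the 3 models against the same 3 C3H samples, with 95% confidence intervals. Filled points were called (unadjusted p under 0.05 and at least 1.5-fold), dotted lines mark 1.5-fold. Neat1 in Pde6b rd10 stands farthest to the right at 2.02, Vax2os has points on both sides of 0 and no point of Prph rd2 is filled.

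In Pde6b rd10 at day 23, 5 of the 10 RNAs were higher than in C3H and none was lower by the same thresholds. Neat1 rose 4.06-fold, Gas5 2.34-fold, Snhg11 2.10-fold, Vax2os 2.03-fold and Malat1 1.59-fold. Among all 18704 genes tested, 15.9% were called higher and 8.08% lower. The median log2 fold change of the 10 was 0.58, against -0.0025 over all genes. edgeR, DESeq2 and limma on FPKM values each gave 0 lower calls. At an unadjusted p under 0.05 alone, Six3os1 and Tug1 passed with values below the controls.

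Neat1, the RNA scaffold of paraspeckles, lay at 10.2, 10.9 and 10.9 CPM in C3H and at 43.2, 42.3 and 44.9 in Pde6b rd10. The log2 fold change was 2.02 ± 0.07 (SE, adjusted p = 1.21e-15). The highest value in the other 9 samples was 13.9 CPM. The gene is counted as 1 exon of 20771 bases, so that its short and long forms are not separated. Next to it on the same strand, 4224 bases away, Frmd8 had a log2 fold change of 0.89 ± 0.10 (SE, adjusted p = 3.70e-07). Malat1, whose gene lies 22036 bases on the other side of Neat1, went from 11015, 10676 and 10764 CPM to 17373, 16427 and 17911, a log2 fold change of 0.67 ± 0.03 (SE, adjusted p = 9.52e-14). Malat1 took 1.03 to 1.07% of all gene reads in C3H, 0.791 to 0.848% in Pde6b rd1 and 1.65 to 1.80% in Pde6b rd10.

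Genes for proteins of the paraspeckle, among them the core proteins Sfpq, Nono and Pspc1, were not called in Pde6b rd10. Of the 12 genes of the list, 0 were called by edgeR, DESeq2 or limma, while 10 had an unadjusted p under 0.05 in edgeR. The share of all genes at that limit is not given here, so nothing is read from this count. The median log2 fold change of the 12 was -0.13. The 3 with the smallest p were Sfpq at -0.23 ± 0.04, Nono at -0.22 ± 0.04 and Hnrnpk at -0.19 ± 0.04 (SE). In Pde6b rd1, where Neat1 had a log2 fold change of -0.03, Pspc1 was called higher at 0.61 ± 0.04 (SE, adjusted p = 5.78e-11), followed in p by Cpsf6 at 0.27 ± 0.03 and Sfpq at 0.24 ± 0.03.

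Gas5, a host of small nucleolar RNAs that accumulates when growth or translation is arrested, had 5.74, 7.03 and 8.09 CPM in C3H and 16.9, 16.6 and 15.3 in Pde6b rd10. The log2 fold change was 1.23 ± 0.11 (SE, adjusted p = 4.48e-09). Its exons share bases with small nucleolar RNA genes on the same strand. How the counting treated reads that lie in both is not given in the sources used here. Snhg11 rose from 121, 113 and 112 to 247, 233 and 246 CPM, by 1.07 ± 0.04 on the log2 scale (SE, adjusted p = 1.78e-14). Of 17 host genes of small nucleolar RNAs that were tested, 4 were called higher and 0 lower, the other 2 being Zfas1 at 0.65 ± 0.11 and Snhg8 at 0.73 ± 0.14 (SE). Snhg14 at 0.53 ± 0.06 (SE) had the next smallest p after Snhg11 and Gas5. The median log2 fold change of the 17 was 0.20.

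Vax2os rose from 36.3, 40.1 and 39.3 CPM to 76.1, 81.5 and 77.3, a log2 fold change of 1.02 ± 0.05 (SE, adjusted p = 1.54e-12). Vax2 had a value of -0.02 ± 0.08 (SE, adjusted p = 0.882). Six3os1 went from 139.6, 143 and 138 to 115, 118 and 111 CPM, a log2 fold change of -0.29 ± 0.04 (SE, adjusted p = 6.30e-06), with no overlap between groups. Six3 had a log2 fold change of -0.06 ± 0.05 (SE, adjusted p = 0.268).

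Meg3 went from 261, 266 and 277 to 365, 389 and 374 CPM, 1.40-fold higher, which is short of the threshold (log2 fold change 0.49 ± 0.04 SE, adjusted p = 8.19e-10). Of 8 genes of its imprinted region, Meg3 included, 6 passed the filter and 2 were called higher. Dio3, which inactivates thyroid hormone, went from between 0.362 and 0.578 CPM in C3H to between 3.30 and 3.74, a log2 fold change of 2.94 ± 0.25 (SE, adjusted p = 2.33e-09), and Dio3os, opposite Dio3, rose by 1.99 ± 0.22 (SE, adjusted p = 1.91e-07). The neighbouring noncoding RNA Rian had -0.26 ± 0.04 (SE, adjusted p = 5.51e-05), Mirg 0.13 ± 0.08 (SE, adjusted p = 0.204) and Begain 0.03 ± 0.06 (SE, adjusted p = 0.747).

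Tug1, needed for photoreceptor differentiation, had 168, 158 and 169 CPM in Pde6b rd10 where C3H had 189.9, 194 and 186, which gives a log2 fold change of -0.21 ± 0.04 (SE, adjusted p = 2.16e-04). Miat lay at 23.9, 25.7 and 24.8 CPM, with a log2 fold change of -0.04 ± 0.07 and a 95% interval from -0.18 to 0.10. Rmst lay at 12.4, 9.15 and 13.1 CPM, with a log2 fold change of 0.43 ± 0.12 (SE, adjusted p = 5.19e-03). The second Rmst sample lay within the controls.

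Other cell types moved with these values too. Genes of reactive glia were higher for 6 of 6 and summed to between 1001 and 1060 CPM, against 205 to 223 in C3H. Microglia genes were higher for 6 of 7 (137 to 146 CPM against 51.8 to 54.9), and cone genes for 4 of 7 (764 to 773 against 489 to 498). Rod genes were lower for 4 of 8 and genes of immature neurons for 3 of 5. Their part in the rise of Neat1, Gas5, Snhg11, Vax2os and Malat1 was not tested. The strain and the mix of sexes cannot be told apart from the genotype.

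In Prph rd2 at day 29, none of the 10 RNAs was called, among 18581 genes of which 2.68% were called higher and 1.89% lower, 4.57% in all. edgeR, DESeq2 and limma on FPKM values each gave 0 calls for the 10 genes. At an unadjusted p under 0.05 alone, 5 of the 10 passed in edgeR, and 3 of these also at an adjusted p under 0.05. The share of all genes at these limits is not given here, so nothing is read from these counts. Snhg11 lay at 137, 127 and 145 CPM, above all controls (log2 fold change 0.24 ± 0.06 SE, adjusted p = 0.0157). Vax2os lay at 31.9, 33.0 and 30.5 CPM, below all controls (log2 fold change -0.28 ± 0.06 SE, adjusted p = 0.0129). Six3os1 lay at 125, 114 and 119 CPM, also below all controls (log2 fold change -0.23 ± 0.05 SE, adjusted p = 9.75e-03).

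Rmst lay at 10.4, 10.7 and 11.9 CPM, above all controls, with a log2 fold change of 0.36 ± 0.11 (SE, adjusted p = 0.0505). Neat1 lay at 11.3, 12.4 and 13.9 CPM, with a log2 fold change of 0.24 ± 0.10 (SE, adjusted p = 0.160). The other 5 lay between -0.11 and 0.23 on the log2 scale, with Gas5 at 0.23 ± 0.13 and Miat at -0.11 ± 0.07 (SE). The 95% intervals of all 10 stayed within -0.41 and 0.59, so that a log2 fold change of 1 in either direction lay outside each of them. Rod genes were lower for 3 of 8 (summed 17024 to 18217 CPM). Tmem119 was the 1 microglia gene of 7 called, and it was higher. The 7 microglia genes together summed to between 45.2 and 47.2 CPM, against 51.8 to 54.9 in C3H. Of 5 genes of immature neurons, 5 of reactive glia and 7 of Müller glia, 0 were called by edgeR, DESeq2 or limma, while 5, 2 and 4 had an unadjusted p under 0.05 in edgeR. Their part in the values of the 10 RNAs was not tested. Here too, the mix of sexes cannot be told apart from the genotype.

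Each model was also set against the single C3H sample labelled with its own day, a fit in which the lone control is assumed to vary like the 3 mutant samples. Only its log2 fold changes are given. In Pde6b rd1, Miat had 1.01, Rmst 0.88 and Vax2os -0.95. In Pde6b rd10, the 5 members called above ran from 0.69 for Malat1 to 1.99 for Neat1. In Prph rd2, the members ran from -0.30 for Vax2os to 0.29 for Snhg11. The fit rests on the C3H day labels, which were not tested. Genes of immature neurons summed to between 503 and 532 CPM across the C3H samples. They summed to 708 to 719 in Pde6b rd1, 286 to 304 in Pde6b rd10 and 395 to 412 in Prph rd2. The fit therefore cannot show whether the calls hold against controls of the same age.

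The models were compared with each other by contrasts in a fit of all 12 samples. Between Pde6b rd10 and Pde6b rd1, which carry mutations in the same gene, 5 members were higher in Pde6b rd10 and Miat was lower, where 17.6% of 19616 genes were called higher and 11.2% lower. Vax2os and Neat1 both differed 4.22-fold. The log2 difference of Vax2os was 2.08 ± 0.06 (SE, adjusted p = 1.33e-16) and that of Neat1 2.08 ± 0.08 (SE, adjusted p = 2.28e-14). Snhg11 differed by 1.56 ± 0.05, Gas5 by 1.27 ± 0.11 and Malat1 by 1.13 ± 0.04 (SE). Miat differed by -1.02 ± 0.06 (SE, adjusted p = 1.72e-11), and Six3os1 by -0.55 ± 0.04, which is 1.47-fold and short of a call.

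Prph rd2 differed from Pde6b rd1 in 3 members, with Snhg11 and Vax2os higher and Miat lower, where 8.21% of genes were called higher and 8.66% lower. Snhg11 differed by 0.74 ± 0.05, Vax2os by 0.78 ± 0.06 and Miat by -1.10 ± 0.06 (SE). Pde6b rd10 differed from Prph rd2 in 5 members, all higher, where 13.5% of genes were called higher and 6.16% lower, 19.7% in all. These were Neat1 at 1.79 ± 0.08, Vax2os at 1.30 ± 0.05, Gas5 at 1.00 ± 0.11, Snhg11 at 0.83 ± 0.05 and Malat1 at 0.65 ± 0.04 (SE). Meg3 also lay higher in Pde6b rd10 than in both other models, by 0.42 ± 0.05 over Pde6b rd1 and 0.41 ± 0.04 over Prph rd2, below 1.5-fold. In all these contrasts, age and genotype change together, and the mix of sexes also differs between the groups. Strain changes too between Pde6b rd10 and Pde6b rd1, and for Prph rd2 the methods and the labels differ on it.

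**Figure D3:**
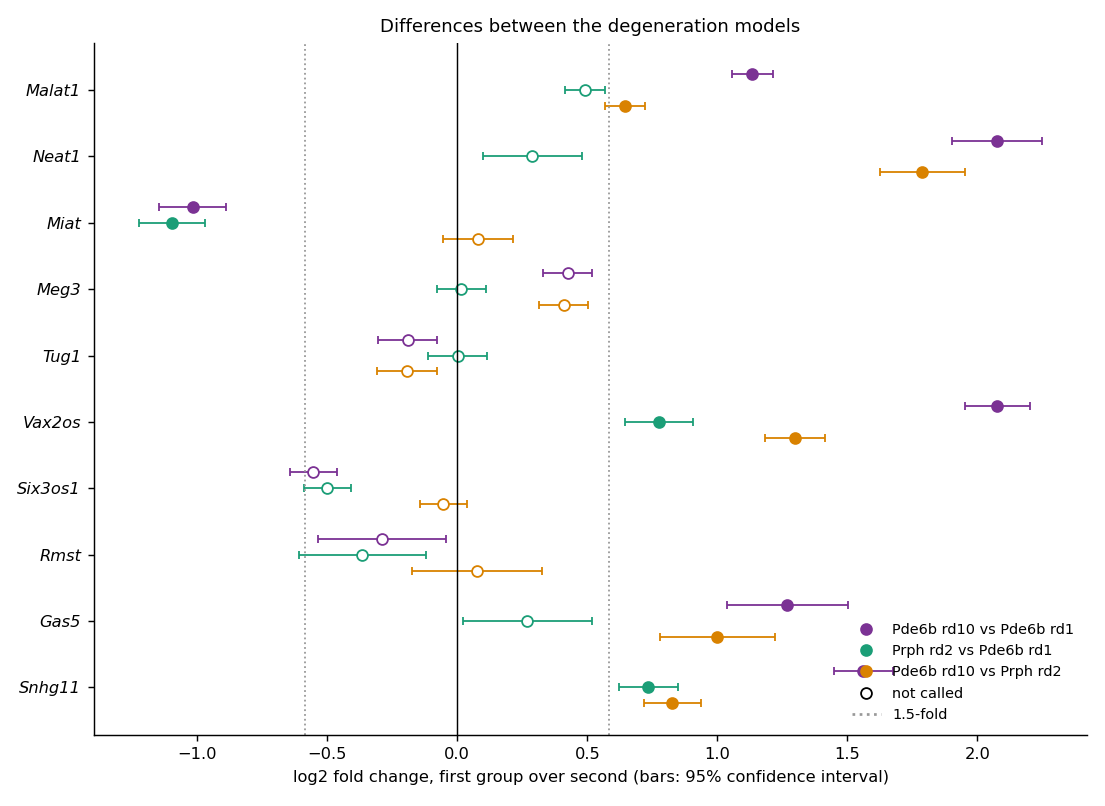
Log2 difference of each gene between the models, with 95% confidence intervals, filled where called. Both contrasts with Pde6b rd10 put Neat1, Vax2os, Gas5, Snhg11 and Malat1 to the right of the 1.5-fold line, and both contrasts with Pde6b rd1 put Miat to the left of it.

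Levels per length, as FPKM, spanned a wide range. In C3H, Malat1 averaged 1500.3 ± 31.3 FPKM (SD, n = 3) and Tug1, next in order, 18.9 ± 0.456. Meg3 followed at 14.3 ± 0.34, Snhg11 at 13.1 ± 0.623, Six3os1 at 11.4 ± 0.26 and Vax2os at 6.91 ± 0.342. Miat had 2.64 ± 0.0606 FPKM, Gas5 1.79 ± 0.291, Rmst 1.12 ± 0.124 and Neat1 0.498 ± 0.0156. No neighbours in this order overlapped in C3H or in Pde6b rd10. In Pde6b rd1 the neighbours Rmst and Gas5 overlapped, and in Prph rd2 Snhg11 and Meg3 did. In Pde6b rd10, Snhg11 stood at 28.5 ± 0.965 FPKM and took the place after Malat1, and Neat1, at 2.10 ± 0.0669 FPKM, passed Rmst at 1.56 ± 0.286.

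**Figure D4:**
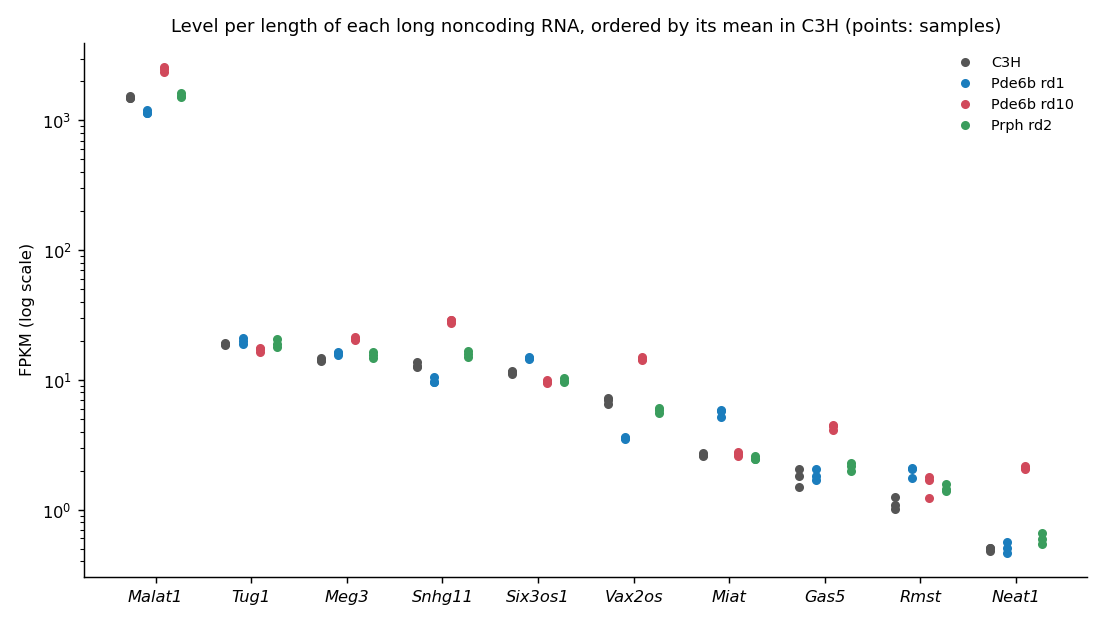
FPKM of each gene in every sample on a log axis, ordered by the mean in C3H. Malat1 lies well above all others in each of the 4 groups, and Neat1 lies at the bottom except in Pde6b rd10.

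The 3 genes whose log2(CPM + 1) over the 12 samples was most like that of each RNA are named as a description. The 12 points are 4 groups of 3, so that r mostly follows the group means. The measure is Pearson's r among 16575 genes with a mean of at least 1 CPM. Neat1 was closest to Dhx58, Fgf2 and Ifit1, with r = 0.996, 0.996 and 0.995. Dhx58 and Ifit1 belong to the interferon response and Fgf2 is a growth factor. Malat1 was closest to Lgi2, Crispld2 and Plpp3 (r = 0.993 each), Snhg11 to Il6st, Rasgrp1 and Prune2, and Vax2os to Cep164, Cnnm4 and Gramd2. Miat was closest to Gm42853, Tpd52l1 and the transcription factor gene Nfib (r = 0.981, 0.978 and 0.976). Six3os1 was closest to Dtx4, Rreb1 and Tubb2b, Meg3 to Pfkfb3, Anxa7 and Gm44646, and Gas5 to Adgrf4, Lonp2 and Fndc4. Tug1 was closest to Ankrd13c, Acsl4 and Ppp2ca, and Rmst to Gm43526, Gm43588 and Gm15712. Among the members, Malat1 and Snhg11 were the pair most alike (r = 0.990).

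The genes next to or opposite the members gave few calls. Of 11 in Pde6b rd1, 0 were called by edgeR, DESeq2 or limma, with 7 at an unadjusted p under 0.05 in edgeR. Among these 7, Zbtb37, next to Gas5, had 0.20 ± 0.03, Morc2a, opposite Tug1, 0.18 ± 0.04, and Ralgapb, next to Snhg11, 0.09 ± 0.03 (SE). Frmd8 had 0.28 ± 0.11 (SE). In Pde6b rd10, Frmd8 was the 1 call of 10 tested, and Zbtb37, Morc2a and Ralgapb lay between -0.05 and 0.03. In Prph rd2, Six2 was the 1 call of 10 (0.88 ± 0.28 SE, adjusted p = 0.0670), where Six3 had 0.00 ± 0.06 and Vax2 -0.13 ± 0.12 (SE). The lens gene Crybb1 near Miat and Nedd1 near Rmst had log2 fold changes between -0.43 and 0.37 in the 3 comparisons, with adjusted p of at least 0.0535, and Dlk1, tested in Pde6b rd1 alone, had 0.70 ± 0.41 (SE, adjusted p = 0.174).

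In the imprinted region of Meg3, Dio3os was the 1 call of 6 in Pde6b rd1, at -1.31 ± 0.40 (SE, adjusted p = 9.68e-03), beside Mirg at -0.47 ± 0.09 (adjusted p = 2.90e-04), Begain at -0.24 ± 0.06 (adjusted p = 1.09e-03) and Rian at 0.00 ± 0.03. In Prph rd2, 0 of 6 were called by edgeR, DESeq2 or limma, with 1 at an unadjusted p under 0.05 in edgeR, and Mirg, Dio3, Dio3os, Rian and Begain lay between 0.05 and 0.27.

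Host genes of small nucleolar RNAs, Snhg11 and Gas5 included, gave 2 lower calls of 17 in Pde6b rd1 by edgeR, against 1 by DESeq2 and 0 by limma. These were Snhg18 at -0.59 and Snhg10 at -0.60, at the edge of 1.5-fold and looked up after the count was seen. The 3 with the smallest p there were Snhg11, Snhg14 at 0.20 ± 0.04 and Snhg20 at -0.31 ± 0.08 (SE). In Prph rd2, 0 were called by edgeR, DESeq2 or limma and 3 had an unadjusted p under 0.05 in edgeR, Snhg11, Snhg14 at 0.32 ± 0.08 and Zfas1 at 0.44 ± 0.13 (SE). Paraspeckle genes gave 0 calls of 12 in Prph rd2 by the same 3 tools, with 3 at an unadjusted p under 0.05 in edgeR, Dazap1 at -0.33 ± 0.09, Smarca4 at -0.13 ± 0.06 and Sfpq at 0.10 ± 0.05 (SE).

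Of 48 other known long noncoding RNAs, 34 were in the table. In Pde6b rd1, 7 of 27 tested were called higher and 0 lower (0 lower also by DESeq2 and limma). After Xist, the smallest p belonged to Kcnq1ot1, the antisense RNA of an imprinted region, at 1.00 ± 0.04 (SE, adjusted p = 1.09e-16) and to the imprinted Peg13 at -0.43 ± 0.03 (SE, adjusted p = 5.51e-11). In Pde6b rd10, 7 of 29 were higher and 1, Paupar, was lower. Lncpint, a target of p53, had 1.63 ± 0.10 (SE, adjusted p = 3.01e-11). Mir124a-1hg, the host of a neuronal miRNA, had -0.39 ± 0.03 (SE, adjusted p = 5.19e-09), short of 1.5-fold. In Prph rd2, 4 of 29 were higher and 1, H19, was lower. Lncpint was at 1.11 ± 0.11 (SE, adjusted p = 1.68e-05) and Mir124a-1hg at -0.50 ± 0.05 (SE, adjusted p = 7.43e-06), the latter short of 1.5-fold. Xist and its antisense Tsix are among the higher calls of each model. Since Xist differs with the mix of sexes, neither call is read as a result of the genotype. Whether counting used strand is not given, so reads of Xist may have been counted on Tsix. Over all genes that GENCODE vM21 types as long noncoding, the called share was 23.4% for Pde6b rd1, 11.9% higher and 11.5% lower. It was 36.4% for Pde6b rd10, 17.6% higher and 18.8% lower, and 8.63% for Prph rd2, 4.08% higher and 4.55% lower.

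Circular RNAs form when a splice donor joins an acceptor upstream of it, and reads across that junction show them. Among 12510 circRNAs, 3 came from Rmst with 114 junction reads in all, and 1 from Malat1 with 2 reads in 1 Prph rd2 sample. The other 8 members gave none. The 3 Rmst circles lie on the minus strand of chromosome 10 and share the exon start at 92136690. Each printed junction joins the last 30 bases of its donor exon, in lower case, to the first 30 of the shared exon, in capitals. GT followed each donor and AG came before the acceptor in the genome.
chr10:92103706-92136690: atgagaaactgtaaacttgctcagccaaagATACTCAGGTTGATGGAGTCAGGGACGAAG
chr10:92109639-92136690: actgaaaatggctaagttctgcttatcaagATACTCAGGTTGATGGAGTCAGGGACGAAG
chr10:92133223-92136690: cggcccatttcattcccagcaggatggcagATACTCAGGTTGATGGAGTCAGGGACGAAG
The capitals are the same in all 3, and the circles differ in the donor exon.

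The longest circle, chr10:92103706-92136690, had 7, 18 and 7 junction reads in the C3H samples, 10, 0 and 5 in Pde6b rd1, 6, 3 and 3 in Pde6b rd10 and 6, 8 and 0 in Prph rd2. In Pde6b rd10 it was called lower (log2 fold change -1.58 ± 0.56 SE, adjusted p = 0.148), a call that was lost without the second C3H sample (-1.17 ± 0.72 SE, adjusted p = 0.539). In Prph rd2 it was not called (-1.21 ± 0.67 SE), but it was called without the second Prph rd2 sample (-1.86 ± 0.81 SE, adjusted p = 0.999), with a minimum of 5 reads over the 6 samples (-1.25 ± 0.60 SE, adjusted p = 0.620) and with the replicate number as a block (-1.32 ± 0.65 SE, adjusted p = 1.00). The circle at chr10:92109639-92136690 had 2, 3 and 2 reads in Pde6b rd10 and 0 in all other samples. It passed the call rule in Pde6b rd10 (adjusted p = 0.222), lost the call without the second C3H sample (adjusted p = 0.368), with the 5-read minimum (adjusted p = 0.399) and with the replicate block (adjusted p = 0.770), and was not tested without any 1 of the Pde6b rd10 samples. Since all its values are at or under the floor of 3 reads, no fold is given. The shortest circle had 4, 5 and 4 reads in C3H, 6, 3 and 0 in Pde6b rd1, 0, 0 and 4 in Pde6b rd10 and 5, 0 and 3 in Prph rd2, and was called only when the third Pde6b rd10 sample, which held its 4 reads there, was left out (adjusted p = 0.167).

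By the call rule, 2 of 3 Rmst circRNAs passed in Pde6b rd10, where 11.8% of all circRNAs tested did. Since 1 of these entered the test only through its Pde6b rd10 reads, nothing is read from this share. The rule passed 0 of 2 in Pde6b rd1 and in Prph rd2, beside 6.37% and 3.35% of all circRNAs. In neither of these did any Rmst circle have an unadjusted p under 0.05. Junction reads made up 7.84% of the junction and gene reads of Rmst in C3H (45 against 529 reads, exact 95% binomial interval 5.78 to 10.3). The shares were 2.72% in Pde6b rd1 (1.75 to 4.02), 3.00% in Pde6b rd10 (1.91 to 4.47) and 2.73% in Prph rd2 (1.72 to 4.10). Of the 45 C3H reads, 23 came from the second sample. These intervals cover counting error only, the reads of 3 samples are pooled in each, and the difference was not tested over samples. Over all circRNAs, C3H averaged 839 junction reads per 1000000 gene reads, whereas the Pde6b rd1 samples averaged 617, the Pde6b rd10 samples 1007 and the Prph rd2 samples 840.

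**Figure D5:**
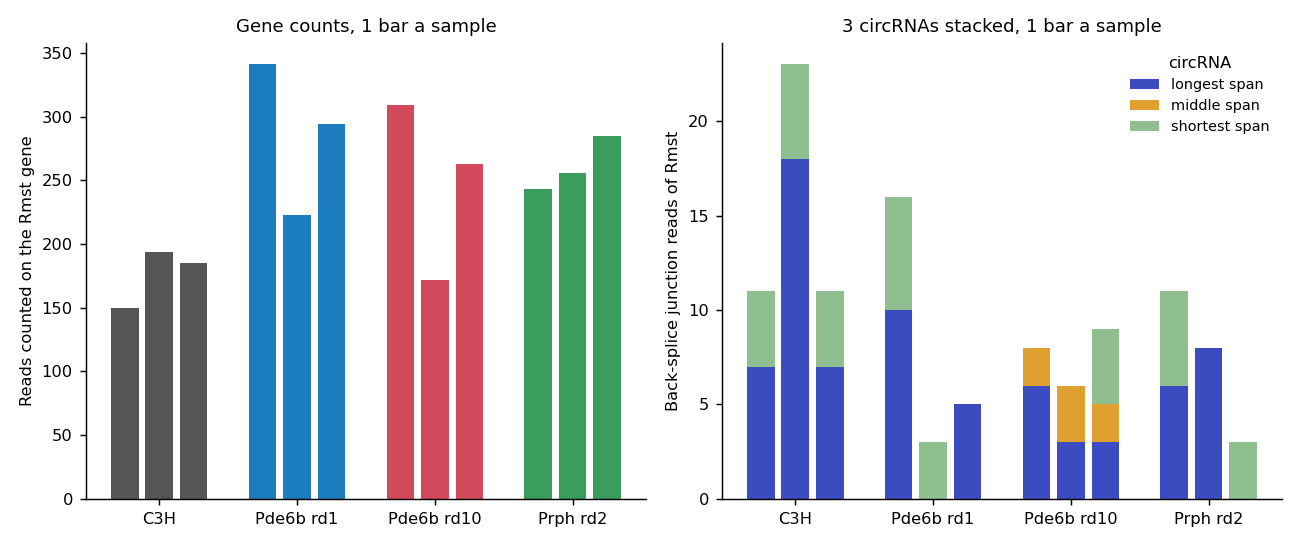
Reads counted on the Rmst gene (left) and its back-splice junction reads (right), 1 bar for each of the 12 samples, with the 3 circRNAs stacked by span. Gene reads lie between 150 and 194 in C3H and reach 341 in Pde6b rd1, while the second C3H sample has the tallest junction bar at 23 reads, and the middle circle appears in the 3 Pde6b rd10 samples only.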

How the data were processed

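The 10 genes and all gene lists were chosen with earlier results of these data known. Retinal RNA of 12 samples, 3 for each of 4 groups by their labels, was depleted of ribosomal RNA and sequenced as directional libraries. The authors aligned reads to GRCm38 and deposited counts per gene made with HTSeq 0.11.2. The submitters' processing notes also name HISAT2. Whether counting used strand is not given in the sources used here. The authors deposited FPKM values computed from these counts, per 1000 bases of gene and 1000000 gene reads, which give the levels per length here. They also deposited counts of back-splice junction reads, from TopHat2 2.1.1 and CIRCexplorer, and TPM values of circRNAs, which are junction reads per 1000000 and were not tested.

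Counts as deposited were tested with edgeR 4.0.16 (R 4.3.3, filterByExpr, TMM, quasi-likelihood test, Benjamini-Hochberg adjustment over all genes tested), each model with C3H in a fit of 6 samples and models against each other in a fit of 12. A call needed an unadjusted p under 0.05 and 1.5-fold, for circRNAs 2-fold and at least 2 reads in 3 of 6 samples. The standard error is the size of the log2 fold change divided by the root of its F statistic. Results were recomputed with limma 3.58.1 on log2(FPKM + 1) and log2(FPKM + 0.1), with DESeq2 1.42.0 and with its size factors in edgeR, and then with no filter, leaving out each sample, a replicate block, the same-day control and 12 samples in 1 fit. The tests were tried on simulated counts first. Genes named are the 10 members, the genes of the neighbour and Meg3 region lists (1 neighbour is counted but not reported here), of other lists the 3 with the smallest p in each comparison, the 3 most correlated genes of each member and the members' circRNAs. Genes named to explain a count or an overlap were chosen after their values were seen. The libraries held between 17049495 and 24755890 gene reads and between 9819 and 25009 junction reads. Annotation was GENCODE vM21. Replicates differed beyond sampling noise, with chi-square per degree of freedom between 1.72 and 10.9. Python 3.11.15, pandas 2.3.3, scipy 1.17.1 and matplotlib 3.10.9 were used.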

Additional observations from a re-analysis of the deposited data

Results flagged for a closer look

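The effects of the models differed from each other in 14 direct contrasts between models that share the C3H controls, each tested with edgeR in the fit of 12 samples. Between Pde6b rd10 and Pde6b rd1, the log2 difference was 2.08 for Neat1, 2.08 for Vax2os, 1.56 for Snhg11, 1.27 for Gas5, 1.13 for Malat1 and -1.02 for Miat. Between Prph rd2 and Pde6b rd1 it was 0.78 for Vax2os, 0.74 for Snhg11 and -1.10 for Miat. Between Pde6b rd10 and Prph rd2 it was 1.79 for Neat1, 1.30 for Vax2os, 1.00 for Gas5, 0.83 for Snhg11 and 0.65 for Malat1. Age changes with the model in each of these contrasts, strain in those where the background differs, and the mix of sexes also differs between the groups. None of these can be told apart from the model.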

How the results depend on the processing

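Of 840 recomputed log2 fold changes of the 10 genes, 804 kept their direction and their side of the call. With limma on log2(FPKM + 1), Rmst in Pde6b rd1 (0.49) and Vax2os between Prph rd2 and Pde6b rd1 (0.58) missed the fold, and with limma on log2(FPKM + 0.1) Six3os1 between Pde6b rd10 and Pde6b rd1 passed it (-0.59). The sign of 9 values near 0, none of them called, turned. Against C3H in Pde6b rd1, Neat1 became 0.013 and 0.032 with limma at the larger and smaller pseudocount and 0.019 with the same-day control, with a range of -0.112 to 0.032 over left-out samples. Gas5 became 0.036, 0.056 and 0.246 in the same order, with a range of -0.136 to 0.090, and Tug1 became -0.013 in the fit of 12 samples, with a range of -0.031 to 0.051. In Pde6b rd10, Miat became 0.014 and 0.018 with limma. In Prph rd2, Tug1 became 0.019 and 0.020 with limma and 0.026 with the same-day control, with a range of -0.074 to 0.048, and Malat1 ranged from -0.0045 to 0.057. Between Prph rd2 and Pde6b rd1, Meg3 became -0.048 and -0.050 with limma, with a range of -0.028 to 0.058, and Tug1 became -0.0091 both with DESeq2 and with its size factors and -0.060 and -0.063 with limma, with a range of -0.061 to 0.059. Between Pde6b rd10 and Prph rd2, Rmst ranged from -0.015 to 0.21. The cause was not tested.

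Circular RNAs of members rested on few reads. In Pde6b rd10, 2 were called, 1 with a minimum of 5 reads over the 6 samples, and between 0 and 2 when a sample was left out. In Prph rd2, 0 were called, 1 with that minimum, and between 0 and 1 when a sample was left out. With the replicate number as a block, 1 was called in each of these models. The block changed no count of called members, and 2774, 4434 and 855 genes were called with it for Pde6b rd1, Pde6b rd10 and Prph rd2 against C3H. Correlations of same-numbered samples, taken on deviations from the group mean, ranged from -0.138 to 0.402. Between C3H and Pde6b rd1, Pde6b rd10 and Prph rd2 they averaged 0.071, -0.048 and -0.040, against -0.035, 0.024 and 0.019 for different numbers. Between Pde6b rd1 and Pde6b rd10 the means were 0.131 and -0.067, between Pde6b rd1 and Prph rd2 0.216 and -0.111. Between Pde6b rd10 and Prph rd2 they were 0.246 and -0.122. Whether same-numbered samples of the mutant groups share a factor was not tested.

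Counts of all genes called moved by more than 1.5 times with limma on log2(FPKM + 1), from 2749 to 1179 for Pde6b rd1, from 4479 to 2189 for Pde6b rd10 and from 850 to 177 for Prph rd2 against C3H, from 5644 to 3048 between Pde6b rd10 and Pde6b rd1, from 3308 to 1151 between Prph rd2 and Pde6b rd1 and from 3862 to 1886 between Pde6b rd10 and Prph rd2. In Prph rd2 the count was 384 by adjusted p, 1300 without a filter and 1435 without the second Prph rd2 sample.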
